A study of Saccharomyces cerevisiae with 83 samples.

Results

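The members described here are 46 yeast transcripts whose coding frame is completed by a programmed frameshift or lies in a Ty retrotransposon. They were picked by their entries in the deposited tables: each is listed only as an unspliced (pre-mRNA) entry, with no mRNA entry for the same locus, among 343 unspliced entries and 6952 transcripts in all. The rule found 47 entries, and 1 of these is not analysed here. Of the 46 members, 2 are single-copy genes, ABP140 (YOR239W) and OAZ1 (YPL052W), and the others are Gag-Pol frames of Ty elements, 29 of Ty1, 10 of Ty2, 2 of Ty3 and 3 of Ty4. The frames were put into these families from general knowledge of their systematic names.

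In programmed frameshifting some ribosomes slip forward by a single base at a fixed site and go on reading in the next frame, while the others stay in the first frame and soon meet its stop codon. Ty elements are retrotransposons that copy themselves through an RNA: the first frame encodes the capsid protein Gag, and ribosomes that shift make the longer Gag-Pol protein, which carries protease, integrase and reverse transcriptase. ABP140 encodes an actin-binding protein whose second part is a tRNA methyltransferase, and OAZ1 encodes antizyme, which sends ornithine decarboxylase for degradation and whose frameshift responds to polyamines. Upf1, Upf3 and Upf2, which the gene NMD2 encodes, act in nonsense-mediated mRNA decay, which degrades mRNAs on which translation ends early.

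All strains were Saccharomyces cerevisiae of the W303 background, and RNA, footprints of all 80S ribosomes (total) and footprints of 80S ribosomes pulled down by a FLAG tag (IP) were sequenced. In the experiment with C-terminal tags every culture received cycloheximide (CHX), which stops elongating ribosomes, and each group had 3 replicates. Its groups were DE572AA-FLAG (upf1::HIS3 with pRS425-DE572AA-FLAG, a helicase-domain substitution of Upf1), a group labelled as lacking Upf2 (nmd2::HIS3, upf1::URA3 with pRS425-UPF1-FLAG, here upf2Δ-labelled), Upf1-FLAG (upf1::HIS3 with pRS425-UPF1-FLAG) and wild type with empty pRS425 (WT-C). In the experiment with N-terminal tags each group had 2 replicates. Its groups were FLAG-Upf1 (upf1::HIS3 with pG1-FLAG-UPF1), FLAG-Upf2 (nmd2::HIS3 with YEplac112-FLAG-UPF2), FLAG-Upf3 (upf3::HIS3 with YEplac195-TPI-FLAG-UPF3) and wild type with empty YEplac112 (WT-N), each with CHX and without it (noCHX). A further group, with CHX only, was upf1::HIS3 with pG1-FLAG-UPF1, pRS425-UPF2 and YEplac195-TPI-UPF3 (triple). The tagged proteins were expressed from plasmids, ribosomal RNA was removed with different kits in the experiments, and the experiments were therefore never put into one model. The samples hold no pull-down from untagged cells, so ratios of IP to total could not be set against one.

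RNA libraries held 92571804 to 164141441 expected counts in the C-terminal experiment and 49079265 to 152961740 in the N-terminal one. Total footprint libraries held 107334 to 3020880 counts and IP libraries 66971 to 1470361, so that members were measured far more precisely in RNA than in footprints. RNA of UPF1 (NAM7) lay at 10843 to 23878 CPM (counts scaled to the library total) in the C-terminal strains with a plasmid copy, against 376 to 395 CPM in WT-C. In the upf2Δ-labelled libraries NMD2 RNA lay at 1164 to 1194 CPM, against 185 to 209 CPM in WT-C, although the label gives nmd2::HIS3. Whether this RNA encodes functional Upf2 was not tested. The upf2Δ-labelled and the FLAG-Upf2 libraries also expressed genes of α cells: MF(ALPHA)1 lay at 497 to 766 CPM there and at no more than 0.56 CPM in all other groups, and STE2, a gene of a cells, at 5.1 to 36.0 CPM there and at 264 to 514 CPM in the others. The part that mating type has in the results of these groups was not tested.

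Reads from Ty copies can match several copies. The values of a single Ty frame are therefore the authors' estimate of how shared reads divide, whereas sums over a family are less exposed to that division within the family. The Ty2 frames YFL002W-A (chromosome VI, 138204 to 143517) and YGR161W-B (chromosome VII, 811738 to 817051) had identical values in every RNA library, as did the Ty1 frames YLR157C-B and YPL257W-B. The entries are loci of the S288C reference (R64), and which of these copies W303 carries was not tested. Of the 29 Ty1 frames, 4 were at 0 in every RNA library, and 12 frames held 99% of the family's RNA in the C-terminal experiment. YBL005W-B (chromosome II, 221330 to 226598) alone held 38.3% there, and YMR045C (chromosome XIII, 357359 to 362627) 25.7%. Ty2 RNA was spread over all 10 frames, led by YCL019W (chromosome III, 85102 to 90415) with 25.1%.

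Members differed widely in RNA level per length. In WT-C the mean FPKM, the authors' level scaled by transcript length and library size, was 428 for YCL019W, above 95.5% of all transcripts, and 172 for YBL005W-B, above 89.7%. ABP140 (chromosome XV, 784857 to 786744) lay at 127 FPKM, above 85.3%, whereas OAZ1 (chromosome XVI, 458799 to 459678) lay at 26.8 FPKM, above 39.0%. In WT-C the Ty3 frames were near the median of all transcripts, 36.7 FPKM. YIL082W-A (chromosome IX, 205635 to 210132) lay at 37.5 FPKM and YGR109W-B (chromosome VII, 707610 to 712254) at 29.4 FPKM. The Ty4 frames were low in WT-C. YJL113W (chromosome X, 198678 to 203325) lay at 7.10 FPKM, YPL060C-A (chromosome XVI, 437333 to 442742) at 5.25 and YHL009W-B (chromosome VIII, 85909 to 91318) at 4.41. In WT-N with CHX, where the median was 39.1 FPKM, several Ty frames lay lower. YIL082W-A lay at 4.32 FPKM there, above 17.7% of transcripts, and YGR109W-B at 7.155 FPKM, above 20.3%. YCL019W lay at 159 FPKM and YBL005W-B at 42.7 FPKM. ABP140 lay at 105 FPKM, OAZ1 at 26.0 FPKM and the Ty4 frames at 5.075 to 10.3 FPKM.

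The first comparison asked how RNA of the members differs where Upf1 is mutated or Upf2 is labelled as absent. RNA of the Ty2, Ty3 and Ty4 frames rose in DE572AA-FLAG and in upf2Δ-labelled cells against WT-C, and for the 15 frames of these families every DE572AA-FLAG and every upf2Δ-labelled library lay above every WT-C library. Of all transcripts 38.9% lay above WT-C in this way in DE572AA-FLAG and 37.1% in upf2Δ-labelled libraries. Of the 37 members tested, edgeR's quasi-likelihood test called 16 higher and 6 lower in DE572AA-FLAG at an adjusted p under 0.05, against 26.3% and 27.6% of all transcripts. In upf2Δ-labelled cells 17 were higher and 4 lower, against 26% and 27.9% of all transcripts. In Upf1-FLAG cells 12 were higher and 5 lower, against 17.5% and 12.8%. The 3 comparisons share the WT-C libraries, and frames of a family share reads, so the frames are not independent. The median log2 fold change of the tested members was 0.25, 0.07 and 0.04 in these comparisons, in that order, and that of all transcripts 0.00, -0.01 and 0.00.

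**Figure D1:**
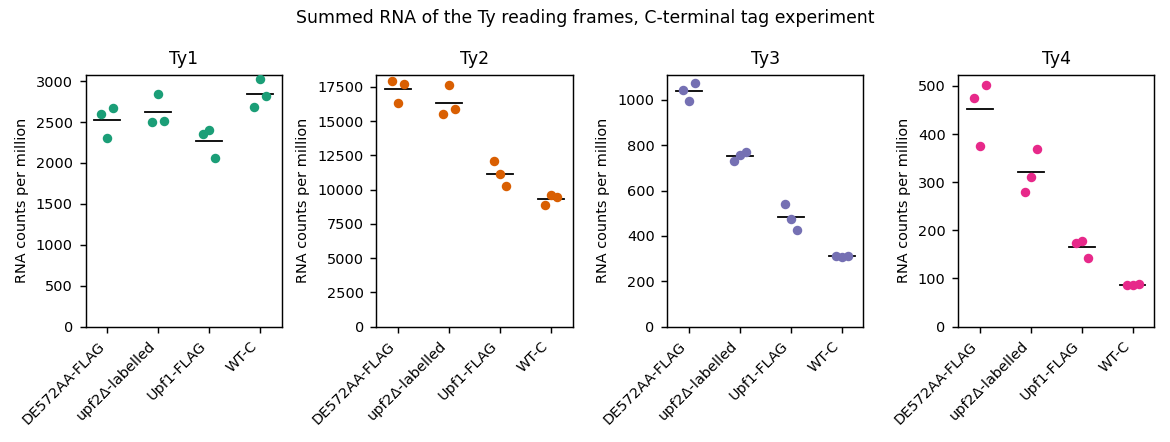
Summed RNA of the Ty reading frames in CPM (y axis, from 0) in the 4 groups with C-terminal tags or none; points are libraries (3 a group) and lines are means. Ty4 lies at 376 to 503 CPM in DE572AA-FLAG libraries and at 85.5 to 87.5 CPM in WT-C libraries, while Ty1 lies at 2309 to 2667 CPM in DE572AA-FLAG and 2682 to 3032 CPM in WT-C.

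Ty4, a family of the copia type, showed the widest differences. Its summed RNA was 475, 376 and 503 CPM in DE572AA-FLAG, 280, 311 and 369.8 CPM in upf2Δ-labelled, 173, 178 and 142 CPM in Upf1-FLAG and 86.2, 85.5 and 87.5 CPM in WT-C libraries. DE572AA-FLAG and upf2Δ-labelled libraries overlapped nowhere with Upf1-FLAG libraries, and these in turn lay above WT-C. The log2 fold change of the sum was 2.27 ± 0.11 (SE, n = 3 each) in DE572AA-FLAG, 1.82 ± 0.11 in upf2Δ-labelled and 0.95 ± 0.11 in Upf1-FLAG cells against WT-C. By edgeR's quasi-likelihood test all 3 frames rose in DE572AA-FLAG and in upf2Δ-labelled cells. YJL113W had 223, 173 and 221 CPM in DE572AA-FLAG, 126.5, 141 and 167 CPM in upf2Δ-labelled, 79.5, 67.9 and 61.6 CPM in Upf1-FLAG and 33.6, 33.6 and 33.3 CPM in WT-C libraries. It rose by 2.50 ± 0.11 on the log2 scale in DE572AA-FLAG (adjusted p = 1.9e-09, edgeR), by 2.04 ± 0.11 in upf2Δ-labelled (adjusted p = 9.7e-09) and by 1.08 ± 0.11 in Upf1-FLAG cells (adjusted p = 1.1e-05). YPL060C-A rose by 2.15 ± 0.21 and 1.67 ± 0.21 in DE572AA-FLAG and upf2Δ-labelled cells, and its 0.54 ± 0.21 in Upf1-FLAG cells missed the threshold (adjusted p = 0.077, edgeR), although it passed without WT-C replicate 1 (0.71, adjusted p = 0.045), with a replicate block (0.55, 0.021) and with only the compared groups in the fit (0.53, 0.021). YHL009W-B rose by 2.04 ± 0.27, 1.65 ± 0.27 and 1.16 ± 0.26 in the 3 groups.

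Ty3, the yeast family of the gypsy type, showed the same order of groups. The sum of its 2 frames was 1043, 997 and 1074 CPM in DE572AA-FLAG, 732, 758 and 768.5 CPM in upf2Δ-labelled, 541.5, 476 and 427 CPM in Upf1-FLAG and 309.5, 308 and 312 CPM in WT-C libraries, and no 2 groups overlapped. The log2 fold change of the sum against WT-C was 1.63 ± 0.06, 1.21 ± 0.06 and 0.65 ± 0.06 (SE, n = 3 each). YIL082W-A had 627, 609.9 and 632 CPM in DE572AA-FLAG, 439, 448 and 428 CPM in upf2Δ-labelled, 326, 290.0 and 259.7 CPM in Upf1-FLAG and 174, 170.4 and 169 CPM in WT-C libraries. It rose by 1.75 ± 0.06 (adjusted p = 8.7e-11, edgeR), 1.29 ± 0.06 (7.9e-10) and 0.79 ± 0.06 (4.5e-07) in these groups. YGR109W-B rose by 1.47 ± 0.07, 1.11 ± 0.07 and 0.47 ± 0.07, from the same fits.

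Ty2 was the most abundant Ty family in RNA, with 17944, 16350.1 and 17696 CPM in DE572AA-FLAG, 15541, 17648 and 15861 CPM in upf2Δ-labelled, 12092, 11173 and 10236 CPM in Upf1-FLAG and 8840.4, 9601 and 9461 CPM in WT-C libraries. DE572AA-FLAG and upf2Δ-labelled libraries overlapped each other and lay above both other groups, and Upf1-FLAG lay above WT-C. The sum changed by 0.78 ± 0.07, 0.75 ± 0.07 and 0.28 ± 0.07 on the log2 scale against WT-C. All 10 frames rose in DE572AA-FLAG, by 0.39 to 1.59, and in upf2Δ-labelled cells, by 0.57 to 1.34, and 8 of 10 rose in Upf1-FLAG cells. YDR034C-D (chromosome IV, 514043 to 519356) stood at the top of that range: it had 1289, 1042 and 1420 CPM in DE572AA-FLAG, 910.1, 1017 and 1124 CPM in upf2Δ-labelled, 596, 628 and 476 CPM in Upf1-FLAG and 360.5, 384 and 402 CPM in WT-C libraries. Its log2 fold change was 1.59 ± 0.12 in DE572AA-FLAG (adjusted p = 1.6e-07, edgeR). YCL019W had 4409, 3788 and 4416 CPM in DE572AA-FLAG, 3757, 4306 and 4234 CPM in upf2Δ-labelled, 3125, 3074 and 2590 CPM in Upf1-FLAG and 2158, 2407 and 2352 CPM in WT-C libraries. It rose by 0.75 ± 0.08, 0.76 ± 0.08 and 0.36 ± 0.08. YOR192C-B (chromosome XV, 704419 to 709732) was at the low end, with 0.39 ± 0.07, 0.57 ± 0.07 and a value of 0.04 ± 0.07 in Upf1-FLAG cells that did not pass the test.

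Ty1, close to Ty2 in sequence, did not share this pattern. Its sum was 2603, 2309 and 2667 CPM in DE572AA-FLAG, 2500.0, 2847 and 2509 CPM in upf2Δ-labelled, 2356, 2398 and 2055 CPM in Upf1-FLAG and 2682, 3032 and 2817 CPM in WT-C libraries. The log2 fold change of the sum was -0.29 ± 0.08 in DE572AA-FLAG, -0.19 ± 0.08 in upf2Δ-labelled and -0.30 ± 0.08 in Upf1-FLAG cells. Of 20 Ty1 frames tested, 1 was higher and 5 lower in DE572AA-FLAG, 2 higher and 3 lower in upf2Δ-labelled and 5 lower in Upf1-FLAG cells. The leading frame YBL005W-B had 1063, 925 and 1152 CPM in DE572AA-FLAG, 1062, 1224 and 1147 CPM in upf2Δ-labelled, 892, 932 and 749 CPM in Upf1-FLAG and 875, 949 and 936 CPM in WT-C libraries. Its 0.24 ± 0.09 in upf2Δ-labelled cells passed the test (adjusted p = 0.03, edgeR), and it no longer did without WT-C replicate 1 (0.20), WT-C replicate 3 (0.26) or upf2Δ-labelled replicate 2 (0.18).

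The Ty1 frames that fell did so beside frames of the same family that did not. YMR045C had 546, 589 and 587 CPM in DE572AA-FLAG, 621, 659 and 569 CPM in upf2Δ-labelled, 686, 562 and 543 CPM in Upf1-FLAG and 716, 958 and 806 CPM in WT-C libraries. It fell by 0.64, 0.49 and 0.45 on the log2 scale (SE 0.10 each). YHR214C-B (chromosome VIII, 543964 to 549346) had 197, 188 and 186 CPM in DE572AA-FLAG, 92.7, 129 and 84.8 CPM in upf2Δ-labelled, 199.7, 192 and 166 CPM in Upf1-FLAG and 321, 347 and 320.4 CPM in WT-C libraries. The lowest group was upf2Δ-labelled, where it fell by 1.76 ± 0.14 (adjusted p = 1e-06, edgeR), and it was lower there than in Upf1-FLAG cells as well (-0.95 ± 0.13, adjusted p = 0.00049). YDR261C-D (chromosome IV, 987534 to 992349) fell by 0.83, 0.69 and 0.82 in the 3 groups (SE 0.15 each). YNL284C-B (chromosome XIV, 96964 to 102232) fell by 0.60 ± 0.15 in DE572AA-FLAG cells. Its call in Upf1-FLAG cells (-0.51 ± 0.15) was lost without Upf1-FLAG replicate 1 or 3 or without any 1 of the WT-C replicates, with -0.44 to -0.52. YNL054W-B (chromosome XIV, 519456 to 524706) was the Ty1 frame that rose in DE572AA-FLAG cells, by 0.37 ± 0.12 (adjusted p = 0.02). YLR227W-B (chromosome XII, 593438 to 598706) was rare, with 0.37, 1.11 and 0.62 CPM in DE572AA-FLAG and 5.35, 15.4 and 11.3 CPM in WT-C libraries. Its fitted log2 fold change of -4.02 ± 1.23 lost its call without DE572AA-FLAG replicate 1 (-3.71) or 3 (-3.93) or WT-C replicate 2 (-3.67).

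**Figure D2:**
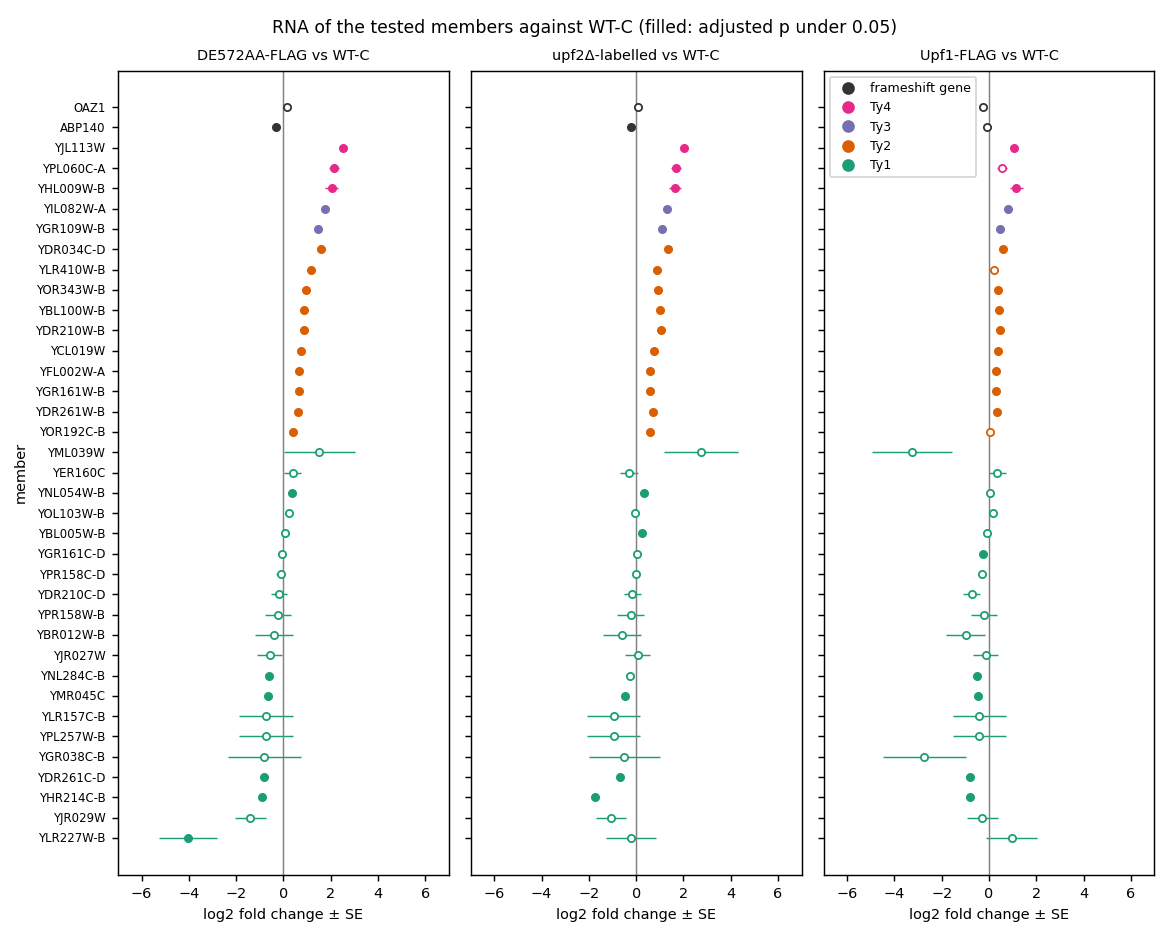
Log2 fold change of RNA against WT-C (x axis, with SE) for the 37 members tested (rows), coloured by family, in DE572AA-FLAG, upf2Δ-labelled and Upf1-FLAG cells; filled points have an adjusted p under 0.05. All Ty2, Ty3 and Ty4 points are filled and to the right of 0 in the panels for DE572AA-FLAG and upf2Δ-labelled, while Ty1 points lie on both sides.

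Against Upf1-FLAG, the strain that carries the same plasmid type with wild-type UPF1, DE572AA-FLAG cells had 16 members higher and 2 lower (background 15.3% and 11.2% of all transcripts), and upf2Δ-labelled cells 16 higher and 2 lower (14.1% and 8.76%). All 10 Ty2 frames and both Ty3 frames were higher in each comparison. For Ty4 these were 3 of 3 frames in DE572AA-FLAG and 2 of 3 in upf2Δ-labelled cells, and the call of YHL009W-B in DE572AA-FLAG (0.88 ± 0.26) was lost without Upf1-FLAG replicate 3 (0.69) or 1 (0.87) or any 1 of the DE572AA-FLAG replicates (0.81 to 0.94). The family sums gave log2 differences of 1.32 for Ty4, 0.98 for Ty3, 0.50 for Ty2 and 0.02 for Ty1 in DE572AA-FLAG against Upf1-FLAG cells. In upf2Δ-labelled against Upf1-FLAG cells they were 0.87, 0.56, 0.46 and 0.12.

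The single-copy genes changed little. ABP140 RNA was 224, 212 and 217 CPM in DE572AA-FLAG, 226, 225 and 220.5 CPM in upf2Δ-labelled, 249.8, 221 and 224 CPM in Upf1-FLAG and 256.5, 246 and 245 CPM in WT-C libraries. It fell by 0.31 ± 0.05 on the log2 scale in DE572AA-FLAG cells (adjusted p = 8.8e-05, edgeR) and by 0.22 ± 0.05 in upf2Δ-labelled cells (0.0011), and the -0.08 ± 0.05 of Upf1-FLAG cells missed the threshold (0.19). Against Upf1-FLAG its calls (-0.22 in DE572AA-FLAG and -0.14 in upf2Δ-labelled cells) did not hold when libraries were scaled by their totals alone (-0.09 and -0.05), and the second of them was also lost without any 1 of the upf2Δ-labelled replicates (-0.16 to -0.088) or Upf1-FLAG replicate 1 (-0.12) or 3 (-0.13). That call also missed the threshold with a replicate block (-0.14, adjusted p = 0.058) and with only the compared groups (-0.13, 0.17). OAZ1 had 29.9, 23.8 and 23.9 CPM in DE572AA-FLAG, 23.2, 25.5 and 22.0 CPM in upf2Δ-labelled, 20.1, 16.3 and 17.2 CPM in Upf1-FLAG and 22.7, 20.9 and 20.7 CPM in WT-C libraries. None of its values against WT-C passed the test: 0.16 ± 0.11 in DE572AA-FLAG (adjusted p = 0.24), 0.07 ± 0.11 in upf2Δ-labelled (0.63) and -0.24 ± 0.11 in Upf1-FLAG cells (0.11). DE572AA-FLAG was higher than Upf1-FLAG (0.40 ± 0.11, adjusted p = 0.016), a call lost without DE572AA-FLAG replicate 1 (0.31, 0.057) or Upf1-FLAG replicate 2 (0.33, 0.061) or with only the compared groups (0.39, 0.066).

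The background for the gene lists that follow is that of all transcripts in the same comparison, 26.3% higher and 27.6% lower in DE572AA-FLAG against WT-C. Of 15 listed activators of Ty1 transcription, 2 rose and 8 fell in DE572AA-FLAG against WT-C, with a median log2 fold change of -0.19: TYE7 fell by 1.03 ± 0.08 (adjusted p = 1.9e-07, edgeR) and STE12, the transcription factor of the mating pathway, by 0.27 ± 0.06. GCN4, the activator of amino acid synthesis genes, rose by 0.43 ± 0.07. Of 13 factors that restrict Ty1, 3 rose and 5 fell, and of 12 cofactors of its retrotransposition, 2 rose and 4 fell, counts near that background. DBR1, the lariat debranching enzyme, rose by 0.49 ± 0.11 among the cofactors and FUS3, a MAP kinase, fell by 0.40 ± 0.09 among the restriction factors.

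Among 16 polyamine genes, the pathway that antizyme regulates, 7 rose and 5 fell in DE572AA-FLAG against WT-C. DUR3, a transporter of urea and polyamines, rose by 1.86 ± 0.09 (adjusted p = 2.7e-09, edgeR), and SPE1, the ornithine decarboxylase that antizyme binds, by 0.44 ± 0.07. SPE3, spermidine synthase, fell by 0.49 ± 0.06. Of 16 genes for proteins of actin patches and cables, 1 rose (ABP1, by 0.38 ± 0.07) and 6 fell, ACT1 among them by 0.25 ± 0.06. Of 3 tested genes listed for tRNA modification 1 fell, TRM7, by 0.16 ± 0.06. In upf2Δ-labelled cells the counts of higher and lower genes were 2 and 8 for activators, 3 and 4 for restriction factors, 2 and 7 for cofactors, 5 and 4 for polyamine genes, 1 and 4 for actin genes and 0 and 1 for tRNA modification, where 26% and 27.9% of all transcripts were called. In Upf1-FLAG cells they were 2 and 3, 1 and 1, 0 and 2, 5 and 1, 1 and 1, and 0 and 0, in the same order of lists, against 17.5% and 12.8% of all transcripts.

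The N-terminal experiment asked how the members differ when tagged Upf1, Upf2 or Upf3 replaces the chromosomal copy. Most tested Ty1 and Ty2 frames fell in FLAG-Upf1 cells, and most Ty1 frames in FLAG-Upf3 cells. The summed Ty1 RNA with CHX was 435 and 463 CPM in FLAG-Upf1, 808 and 732 CPM in FLAG-Upf2, 492 and 398 CPM in FLAG-Upf3, 472 and 483 CPM in triple and 784 and 846 CPM in WT-N libraries. Without CHX it was 467 and 454 CPM in FLAG-Upf1, 919 and 833 CPM in FLAG-Upf2, 499 and 477 CPM in FLAG-Upf3 and 919 and 949.7 CPM in WT-N libraries. FLAG-Upf1, FLAG-Upf3 and triple libraries all lay below every WT-N library of the same treatment. The log2 fold change of the sum was with CHX -0.85 ± 0.10 for FLAG-Upf1, -0.04 ± 0.10 for FLAG-Upf2 and -0.82 ± 0.10 for FLAG-Upf3 cells, and -0.85 ± 0.10 for triple cells (SE, n = 2 each). Without CHX it was -1.13, -0.07 and -0.95 in the 3 tagged strains. The difference between the tagged strains was not tested, and the FLAG-Upf2 libraries are those with the α-cell genes.

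**Figure D3:**
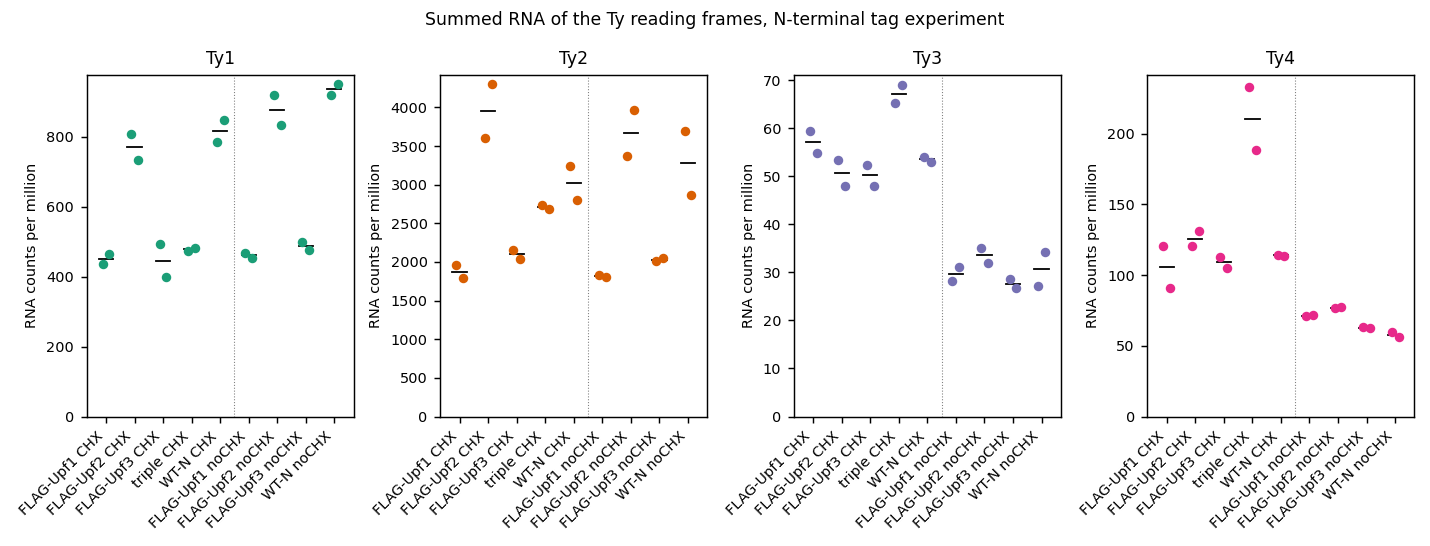
Summed RNA of the Ty reading frames in CPM (y axis, from 0) in the N-terminal experiment, with CHX left and without CHX right of the dotted line; points are libraries (2 a group), lines are means, and triple is the strain with 3 plasmids. Ty1 lies at 398 to 492 CPM in FLAG-Upf1, FLAG-Upf3 and triple libraries with CHX and at 784 and 846 CPM in WT-N.

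By edgeR's quasi-likelihood test 17 of 33 members were lower and 0 higher in FLAG-Upf1 with CHX, where 5.75% of all transcripts were lower and 8.64% higher. With scaling by RLE factors the share of higher calls among all transcripts called moved to 42.98% in that comparison, against 60.1% with TMM, and to 48.2% against 60.1% in triple cells. In FLAG-Upf3 with CHX 14 were lower and 0 higher (background 2.52% and 1.35%), in FLAG-Upf2 1 was lower and 2 higher (0.609% and 1.22%), and in triple cells 14 were lower and 4 higher (8.95% and 13.5%). Without CHX 19 were lower and 1 higher in FLAG-Upf1 (20% and 16.8%), 2 lower and 4 higher in FLAG-Upf2 (4.97% and 9.93%), and 15 lower and 0 higher in FLAG-Upf3 (1.66% and 3.03%). Comparisons of a treatment share their WT-N libraries. These counts rest on 1 estimate of the spread from all groups: with only the compared groups in the fit the calls over the 4 comparisons with CHX were 26, against 52, and over the 3 without CHX 18, against 41.

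Individual Ty1 frames fell to different extents. With CHX, 10 of 16 tested frames were lower in FLAG-Upf1 cells, 1 was lower in FLAG-Upf2 and 9 were lower in FLAG-Upf3 cells, and 10 in triple cells. YNL054W-B had 13.1 and 13.98 CPM in FLAG-Upf1, 27.3 and 25.8 CPM in FLAG-Upf2, 13.8 and 14.7 CPM in FLAG-Upf3, 14.5 and 13.3 CPM in triple and 24.1 and 32.2 CPM in WT-N libraries with CHX. It fell by 1.04 ± 0.13 in FLAG-Upf1 (adjusted p = 0.00025, edgeR), 0.92 ± 0.13 in FLAG-Upf3 (0.0022, and 0.08 with only the compared groups) and 1.09 ± 0.13 in triple cells (5e-05). YHR214C-B was the Ty1 frame that fell in FLAG-Upf2 cells under both treatments, with 14.1 and 16.8 CPM with CHX and 17.8 and 17.1 CPM without it, against 39.3 and 43.7 CPM and 50.8 and 49.5 CPM in WT-N. Its log2 fold change was -1.39 ± 0.12 (adjusted p = 1.2e-05) and -1.503 ± 0.12 (4e-06). It is also the frame that was lowest in upf2Δ-labelled cells in the C-terminal experiment, the other group with α-cell genes.

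Ty2 RNA with CHX was 1961 and 1787 CPM in FLAG-Upf1, 3603 and 4300.3 CPM in FLAG-Upf2, 2161 and 2037 CPM in FLAG-Upf3, 2736 and 2689 CPM in triple and 3248 and 2805 CPM in WT-N libraries. The sum differed from WT-N by -0.68 for FLAG-Upf1, 0.42 for FLAG-Upf2, -0.47 for FLAG-Upf3 and -0.24 for triple cells on the log2 scale (SE 0.13). Without CHX the values were -0.96, 0.18 and -0.71. In FLAG-Upf1 7 of 10 Ty2 frames were lower under each treatment, and in FLAG-Upf3 5 with CHX and 6 without it. YCL019W fell by 0.87 ± 0.17 in FLAG-Upf1 with CHX (adjusted p = 0.0058, edgeR), with 525 and 413 CPM in FLAG-Upf1 against 936 and 779 CPM in WT-N libraries. With only the compared groups this call was lost (adjusted p = 0.055). The frames YFL002W-A and YGR161W-B, with identical values, were called lower in FLAG-Upf3 (-0.57 ± 0.13, adjusted p = 0.032) and triple cells with CHX (-0.40 ± 0.13, 0.041), and a replicate block ended both calls (0.051 and 0.055). For YCL019W the C-terminal Upf1-FLAG strain had shown the opposite sign against WT-C (0.36 ± 0.08). That was another set of libraries with another tag, plasmid and kit.

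With CHX the Ty4 frames rose in triple cells, and the Ty3 frames passed the test in no strain. Ty4 RNA with CHX was 120.5 and 90.5 CPM in FLAG-Upf1, 120.3 and 131 CPM in FLAG-Upf2, 113 and 105 CPM in FLAG-Upf3, 233 and 188 CPM in triple and 114 and 114 CPM in WT-N libraries. Triple cells thus lay above all others, with a log2 fold change of 0.80 ± 0.09 for the sum. YJL113W rose there by 0.89 ± 0.10 (adjusted p = 3.5e-05, edgeR) and YPL060C-A by 0.86 ± 0.17 (0.0041, and 0.054 with only the compared groups), while the call of YHL009W-B (0.64 ± 0.19, adjusted p = 0.03) was lost without any 1 of the 2 triple or 2 WT-N libraries (0.60 to 0.67). For Ty3 the sum differed from WT-N by 0.10, -0.04, -0.04 and 0.25 in FLAG-Upf1, FLAG-Upf2, FLAG-Upf3 and triple cells with CHX. Without CHX YJL113W passed in FLAG-Upf2 cells (0.55 ± 0.10, adjusted p = 0.0029) and in FLAG-Upf1 cells (0.31 ± 0.10, 0.029), with 32.3 and 33.2 CPM in FLAG-Upf2, 29.7 and 30.7 CPM in FLAG-Upf1 and 24.01 and 21.2 CPM in WT-N libraries. Both calls were lost with only the compared groups (adjusted p = 0.091 and 0.052), and that in FLAG-Upf1 also without FLAG-Upf1 replicate 1 (0.33) or 2 (0.28) or WT-N replicate 2 (0.19). ABP140 RNA with CHX stayed between 193 and 216 CPM in all 10 libraries. It passed the test once, in FLAG-Upf1 without CHX (-0.17 ± 0.04), a call lost without FLAG-Upf1 replicate 1 (-0.14), with only the compared groups (-0.13) and with scaling by library totals (-0.06). OAZ1 had 28.6 and 23.9 CPM in triple against 21.3 and 20.4 CPM in WT-N libraries with CHX, and its call (0.25 ± 0.07, adjusted p = 0.032) was lost without triple replicate 1 (0.17), WT-N replicate 1 (0.29) or WT-N replicate 2 (0.21).

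The effect of brief CHX treatment on RNA was read in WT-N. Ty4 RNA was 114 and 114 CPM with CHX and 59.6 and 56.0 CPM without it, and Ty3 RNA 54.0 and 52.9 CPM with CHX and 27.1 and 34.2 CPM without it. Both families lay higher with CHX in every library, by 0.60 ± 0.09 and 0.43 ± 0.10 on the log2 scale after TMM scaling. Of 33 members 3 were higher and 14 lower, against a background of 30.8% and 29.5% of all transcripts. The lower calls depended on the scaling: with library totals in place of TMM factors the median of all transcripts moved to 0.40, and 8 members were higher and 0 lower. Relative to that median the Ty3 and Ty4 sums, 0.81 and 0.98 with library totals, were again higher, and the Ty1 and Ty2 sums, -0.20 and -0.12, again lower. ABP140 had 202 and 209 CPM with CHX and 196 and 209 CPM without it, and its -0.35 ± 0.04 with TMM (adjusted p = 1.9e-05, edgeR) was 0.023 (0.75) with library totals. YJL113W rose by 0.72 ± 0.10 (adjusted p = 5.3e-05), and the rise of YIL082W-A (0.78 ± 0.21, 0.0069) was lost without WT-N replicate 1 with CHX (0.41) or replicate 2 without it (0.55) and with only the compared groups (0.81, adjusted p = 0.084).

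Footprints of all ribosomes on the members were few. Ty frames together held 0.0122% to 0.0299% of the total footprints in the C-terminal experiment, against 1.19% to 2.21% of RNA. In FPKM of total footprints over FPKM of RNA, Ty2 reached 0.0046 in DE572AA-FLAG, 0.0042 in upf2Δ-labelled, 0.0039 in Upf1-FLAG and 0.0016 in WT-C, where 2 of 3 libraries were listed at 0. No transcript of those compared lay below Ty2 in any of the 4 groups. The compared transcripts numbered 4849, 5055, 5054 and 3411 of the 6952 listed, in that order. Their medians were 0.51, 0.50, 0.52 and 0.56. Transcripts left out of the comparison could lie below Ty2, so its rank holds only among those compared. Ty1 had 0.067, 0.063, 0.070 and 0.042, and Ty3 0.024, 0.036, 0.047 and 0.034. Ty4 had 0.012, 0.015, 0.028 and 0.076, the last of these on 4 footprint counts. ABP140 had 0.37, 0.35, 0.35 and 0.31, and OAZ1 0.85, 0.77, 0.74 and 0.54. In the N-terminal experiment the ratios of Ty1 were higher, with group means of 0.12 to 0.55 against medians of 0.62 to 0.97. Its libraries differed widely, with 0.92 and 0.18 in triple cells. Ty3 means ran from 0 to 1.07 there, the highest on 14 footprint counts in FLAG-Upf1 without CHX. Ty2 means stayed at 0.0079 to 0.032. The families' order by RNA, with Ty2 far above Ty1, was turned round in footprints: Ty1 had 152.5, 185 and 180 CPM of total footprints in DE572AA-FLAG and Ty2 98.1, 78.1 and 71.2 CPM. The footprints are 27 to 32 nt long and the RNA reads longer, and the part that the division of short reads among Ty copies has in these ratios was not tested.

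**Figure D4:**
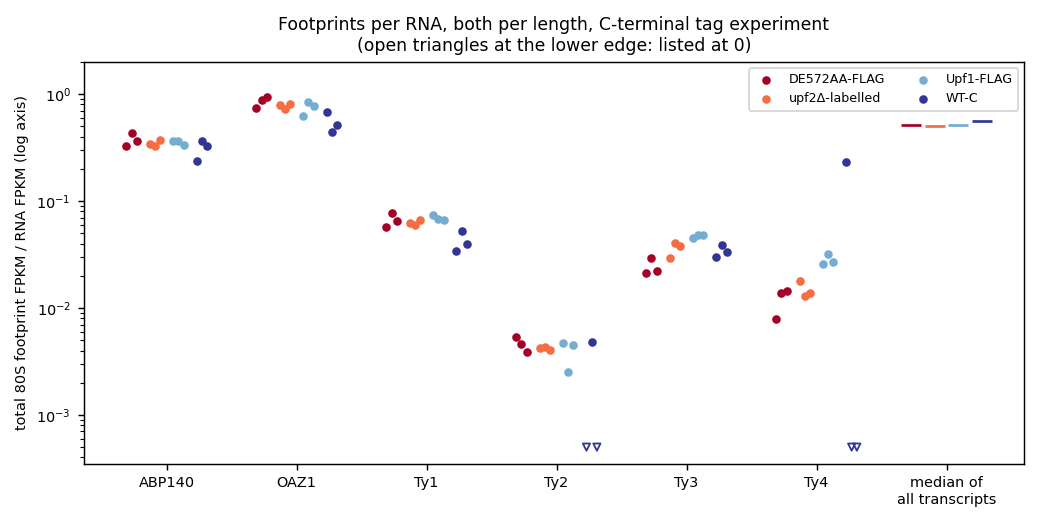
Ratio of total footprint FPKM to RNA FPKM (y axis, log scale) for ABP140, OAZ1 and the 4 Ty families in each library of the C-terminal experiment, with the median of the transcripts compared in each group as dashes; open triangles at the lower edge are libraries listed at 0. Ty2 lies near 0.0046 in DE572AA-FLAG, and OAZ1 near 0.85, above the median of 0.51.

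Few members passed the filter in total footprints, and 1 difference between strains was called in the C-terminal experiment. Of 10 members tested, edgeR's quasi-likelihood test called 1 higher and 0 lower in upf2Δ-labelled cells (4.6% and 3.32% of all transcripts), YIL082W-A, with 11.5, 13.1 and 14.3 CPM in upf2Δ-labelled and 9.36, 0 and 0 CPM in WT-C libraries. Those CPM rest on 22, 36 and 34 counts against 2 counts in all, and the fitted log2 fold change of 3.02 ± 0.88 (adjusted p = 0.034) was lost without any 1 of the upf2Δ-labelled replicates (2.94 to 3.08) and without WT-C replicate 2 (2.07) or 3 (2.33). In DE572AA-FLAG and in Upf1-FLAG cells 0 of 10 members were called by this test, 1 each had an unadjusted p under 0.05, and DESeq2 called 1 member over the 3 comparisons. The background was 5.41% higher and 3.87% lower, and 1.61% higher and 1.79% lower, of all transcripts. OAZ1 had 27.03, 25.2 and 27.4 CPM in DE572AA-FLAG and 18.7, 11.2 and 12.8 CPM in WT-C libraries, without overlap (0.88 ± 0.33, adjusted p = 0.097). The Ty3 sum was 23.2, 30.7 and 24.8 CPM in DE572AA-FLAG, 22.3, 31.98 and 30.3 CPM in upf2Δ-labelled, 25.5, 23.8 and 21.5 CPM in Upf1-FLAG and 9.36, 12.6 and 10.96 CPM in WT-C libraries, all of them below the other groups. ABP140 overlapped between groups, with 78.8, 99.0 and 86.2 CPM in DE572AA-FLAG and 65.5, 97.9 and 87.7 CPM in WT-C libraries. In the N-terminal experiment 0 of 7 members were called by edgeR in any of 7 comparisons, with 3 unadjusted p under 0.05 among them, and DESeq2 called 0 as well. The background there was at most 0.161% higher, and 0.0922% lower in FLAG-Upf2 under each treatment, 0.853% lower in triple and 0% lower in the other 4 comparisons, and in FLAG-Upf1 without CHX the 2 transcripts called in all were both higher with TMM, against 42.9% of those called with RLE factors.

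Footprints set against RNA in one model (translational efficiency) gave 0 calls among 36 members in the 3 comparisons with WT-C by edgeR. Frames could enter this model through their RNA counts alone. Of all 29 Ty1 frames, 12 had 0 counts in every total footprint library. Tested frames without footprints, such as YDR261C-D and YOL103W-B, had SE of 2354 and 565 in DE572AA-FLAG, so no call was possible for them. The unadjusted p was under 0.05 for 2 members higher in DE572AA-FLAG, 1 higher in upf2Δ-labelled, and 1 higher and 1 lower in Upf1-FLAG cells, and DESeq2 called 2 in all. Of all transcripts 1.45%, 1.89% and 0.483% were called higher, and 0.498%, 0.513% and 0.211% lower. The share of higher calls was 74.4%, 78.6% and 69.6% with TMM and 43.96%, 43.01% and 33.3% with RLE factors. The family sums were fitted with no test. For Ty1 the log2 differences in footprints per RNA were 0.57 ± 0.17 in DE572AA-FLAG, 0.47 ± 0.17 in upf2Δ-labelled and 0.56 ± 0.17 in Upf1-FLAG cells. They rest on 200 footprint counts in WT-C. The median over all transcripts was 0.14, 0.16 and 0.13 with TMM, and 0.02, 0.03 and 0.04 with RLE factors. For Ty2 the differences were 1.00 ± 0.60, 0.86 ± 0.59 and 0.69 ± 0.60, on 34 counts in WT-C. For Ty3 they were -0.53 ± 0.29, 0.02 ± 0.27 and 0.35 ± 0.26 on 17 counts in WT-C, and for Ty4, with 4 counts there, a difference was not detectable at this depth (SE 0.98 to 1.12).

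The last comparison asked which members were enriched or depleted on ribosomes bound by Upf1. Footprints of the Ty3 frames were enriched in the DE572AA-FLAG pull-down, and those of OAZ1 were depleted in all 3 C-terminal pull-downs. Of 12 members tested, 2 were higher and 3 lower in IP than in total footprints of DE572AA-FLAG (17% and 20% of all transcripts by edgeR's quasi-likelihood test), 1 higher and 2 lower in upf2Δ-labelled (22% and 22.9%) and 1 higher and 3 lower in Upf1-FLAG cells (21.9% and 22.9%). These shares lie near the background, so the counts themselves set nothing apart.

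YGR109W-B, a Ty3 frame, had 76.9, 87.5 and 115 CPM in IP and 19.6, 23.2 and 16.9 CPM in total libraries of DE572AA-FLAG. In upf2Δ-labelled cells it had 6.57, 8.84 and 16.9 CPM in IP and 10.8, 18.9 and 15.9 CPM in total, and in Upf1-FLAG cells 0, 4.27 and 10.9 CPM in IP and 21.6, 15.9 and 13.6 CPM in total. The frame was thus high in the IP of DE572AA-FLAG alone among the 3 pull-downs. The log2 ratio of IP to total was 2.03 ± 0.28 in DE572AA-FLAG (adjusted p = 2.6e-07, edgeR), -0.73 ± 0.41 in upf2Δ-labelled (0.15) and -1.64 ± 0.46 in Upf1-FLAG cells (0.0033), and this last call was lost without Upf1-FLAG IP replicate 2 (-1.28, 0.083). The difference of ratios between DE572AA-FLAG and Upf1-FLAG was 3.67 ± 0.52 (adjusted p = 1e-04, edgeR), in a test that called 0.139% of all transcripts, and none of the other 11 members passed it.

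YIL082W-A, the other Ty3 frame, had 46.3, 32.3 and 40.6 CPM in IP and 3.58, 7.52 and 7.94 CPM in total libraries of DE572AA-FLAG, and 17.6, 60.3 and 46.6 CPM in IP and 11.5, 13.1 and 14.3 CPM in total of upf2Δ-labelled cells. Its log2 ratio of IP to total was 2.42 ± 0.42 in DE572AA-FLAG (adjusted p = 1.9e-05, edgeR), 1.46 ± 0.38 in upf2Δ-labelled (0.0021) and 1.20 ± 0.47 in Upf1-FLAG cells (0.036). The last of these was lost without Upf1-FLAG IP replicate 1 (0.96) or 2 (1.35) or total replicate 1 (0.93). For the sum of both frames the ratio was 2.14 ± 0.23, 0.65 ± 0.26 and -0.22 ± 0.30 in the 3 pull-downs. The Ty4 sum, also given with no test, had 1.80 ± 0.59 in DE572AA-FLAG, on 66 IP and 24 total counts, 0.46 ± 0.69 in upf2Δ-labelled and -1.61 ± 0.92 in Upf1-FLAG cells, on 4 IP and 44 total counts. The Ty1 sum had -0.68 ± 0.27, -1.07 ± 0.29 and -1.07 ± 0.30, and the Ty2 sum -0.60 ± 0.44, -0.24 ± 0.47 and 0.08 ± 0.51, in the same order. In upf2Δ-labelled and Upf1-FLAG cells the Ty3 frames therefore had ratios of opposite sign, and the division of reads between them is the authors' estimate.

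**Figure D5:**
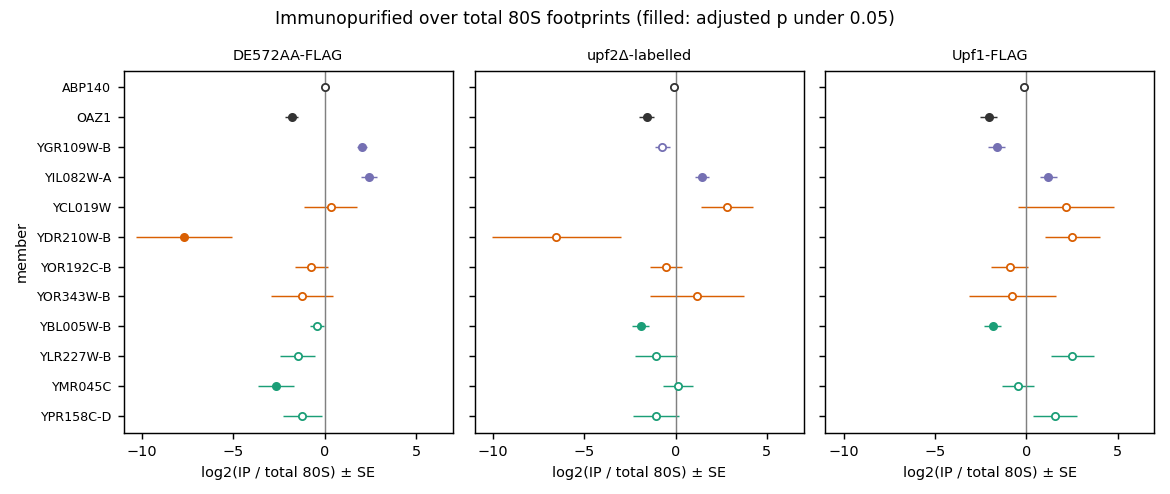
Log2 ratio of IP to total footprints (x axis, with SE) for the 12 members tested (rows), in DE572AA-FLAG, upf2Δ-labelled and Upf1-FLAG cells; filled points have an adjusted p under 0.05. OAZ1 lies left of 0 in all 3 panels (-1.80, -1.58 and -2.07), and YGR109W-B lies at 2.03 in the first panel and at -1.64 in the last.

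OAZ1 was lower in IP than in total footprints in each C-terminal strain. It had 11.9, 9.16 and 4.19 CPM in IP and 27.03, 25.2 and 27.4 CPM in total of DE572AA-FLAG, 11.6, 9.09 and 1.71 CPM in IP and 22.3, 22.2 and 21.3 CPM in total of upf2Δ-labelled, and 0, 4.28 and 5.43 CPM in IP and 15.1, 16.6 and 16.02 CPM in total of Upf1-FLAG cells. Every IP library lay below every total library of its strain. The log2 ratios were -1.80 ± 0.35 (adjusted p = 9.3e-05, edgeR), -1.58 ± 0.40 (0.0013) and -2.07 ± 0.47 (0.00045), on 29, 17 and 9 IP counts. ABP140 had ratios of 0.00 ± 0.17, -0.11 ± 0.18 and -0.11 ± 0.17, and IP and total libraries overlapped in each strain. The leading Ty1 frame YBL005W-B was lower in IP in upf2Δ-labelled (-1.92 ± 0.47, adjusted p = 0.0037, and 0.056 with only the compared groups) and Upf1-FLAG cells (-1.86 ± 0.47, 0.0046), and its -0.43 ± 0.38 in DE572AA-FLAG missed the threshold (0.41). YMR045C was called lower in DE572AA-FLAG (-2.67 ± 0.98, adjusted p = 0.046), a call lost without any 1 of the 6 libraries (-2.15 to -3.65). The Ty2 frame YDR210W-B, named because its call makes up the count, was called lower there with 0 IP counts, so its fitted value gives no size. Of 15 polyamine genes tested, 9 were called higher and 0 lower in IP of DE572AA-FLAG (17% and 20% of all transcripts), and 7 and 0 in upf2Δ-labelled (22% and 22.9%) and in Upf1-FLAG cells (21.9% and 22.9%). SAM1, an S-adenosylmethionine synthetase, had a log2 ratio of 1.20 ± 0.11 and SPE1 0.38 ± 0.13 in DE572AA-FLAG. Of 13 factors that restrict Ty1, 5 were higher in each of the 3 pull-downs, and 1, 0 and 1 lower. In DE572AA-FLAG 4 of 15 activators were higher and 3 lower, and of 12 cofactors 1 and 3. Of 16 actin genes 2 were higher and 4 lower there, and of 3 tRNA modification genes 1 and 2.

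In the N-terminal pull-downs ABP140 was the member with differences in more than 1 strain. With CHX it had 21.5 and 15.8 CPM in IP and 229.5 and 207 CPM in total libraries of FLAG-Upf3, and 65.7 and 34.05 CPM in IP and 177 and 211 CPM in total of FLAG-Upf2. Without CHX it had 41.3 and 32.6 CPM in IP and 226 and 174 CPM in total of FLAG-Upf2. The log2 ratio was -3.55 ± 0.69 in FLAG-Upf3 with CHX (adjusted p = 0.00011, edgeR, with 9.24% of all transcripts lower), -1.97 ± 0.60 in FLAG-Upf2 with CHX (0.027, with 7.75%) and -2.43 ± 0.61 in FLAG-Upf2 without CHX (0.0044, with 7.23%). The call in FLAG-Upf2 with CHX was lost without any 1 of its 4 libraries (-1.43 to -2.41), and the one without CHX without IP replicate 1 (-2.44) or 2 (-2.16) or total replicate 1 (-2.17). YBL005W-B was called higher in IP of FLAG-Upf3 with CHX (adjusted p = 0.021, with 2.56% of all transcripts higher), with 36 and 55 IP counts against 0 in total, and lost the call without any 1 of the 4 libraries (fitted 8.36 to 8.43, no measure of size). In the other 4 comparisons 0 of 8 members were called by edgeR, with 1 unadjusted p under 0.05, in FLAG-Upf1 with CHX, and DESeq2 called 4 members over all 7 comparisons, as edgeR did. The background was 0.655% higher and 2.62% lower in FLAG-Upf1 without CHX, 1.27% and 7.93% in FLAG-Upf3 without CHX, 0.524% and 1.7% in FLAG-Upf1 with CHX and 6.4% and 7.4% in triple cells. Libraries of lysates are bulk samples, in which fewer cells with a transcript and less of it per cell cannot be told apart.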

How the data were processed

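RNA, total 80S footprints and IP 80S footprints were measured in the groups named above. The authors deposited expected counts (reads estimated for each transcript, not always whole) and FPKM values, as the names of the deposited tables give them. There is a column per library and footprint length class, and replicates were not pooled. The submitters' processing notes name cutadapt, Bowtie and RSEM and the builds R64 and sacCer3, with no versions. How reads that match several Ty copies were treated is not given in the sources used here. Coordinates and symbols came from a RefSeq table of R64, in which 5966 of 6656 loci matched, and no genome sequence was used. Ty families were assigned from general knowledge of yeast Ty names, not from the files.

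Expected counts were rounded and tested with edgeR 4.0.16 (R 4.3.3): quasi-likelihood tests with TMM factors, filterByExpr with a minimum count of 10, no replicate term, a separate model for each experiment and library kind that holds all its groups, and Benjamini-Hochberg adjustment over all transcripts tested (6739 in RNA of the C-terminal experiment, 6736 in RNA of the N-terminal one, 5086 and 4339 in total footprints, 5050 and 4578 in IP against total, 6624 in translational efficiency). A call is an adjusted p under 0.05, two-sided. SE is the absolute log2 fold change over the square root of F. Family sums were refitted in place of their frames and carry no p. CPM is the expected count scaled to the library's total. Footprints were the deposited classes of 27 to 32 nt with CHX and of 20 to 32 nt without it, so their totals are not the depth of whole libraries.

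The members and gene lists were chosen with earlier results of these data known. Named members are the single-copy genes, all Ty3 and Ty4 frames, the 3 leading frames each of Ty1 and Ty2, and per comparison up to 5 called members with the largest change and no overlap between groups. A list of Gag-only rows matched 0 entries, and 3 of 4 tRNA modification genes were tested. Nothing in the labels says that replicates were separate cultures, so p-values measure only the spread between these samples, which may be technical. IP and total libraries share a library number in the labels and were paired by it in the block alternative; their deviations from the group means correlated at -0.03 to 0.06 in the C-terminal and -0.04 to 0.09 in the N-terminal experiment. Alternatives were RLE factors, library totals (added after the data were seen), DESeq2 1.42.0, limma 3.58.1 on log2(FPKM + 1), no filter, only the compared groups, a replicate block and leaving out each library. The code was tested on simulated data.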

Additional observations from a re-analysis of the deposited data

Results flagged for a closer look

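The Ty3 frame YGR109W-B was picked out because its ratio of IP to total footprints differed between strains by a test of the difference itself: the log2 ratio was 3.67 higher in DE572AA-FLAG than in Upf1-FLAG cells (SE 0.52, adjusted p = 1e-04, edgeR's quasi-likelihood test, n = 3 each).

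Footprints of 37 to 43 nt, a class that the comparisons did not use, were given for 10 IP and 4 total libraries with CHX, with 1872582 and 66467 counts in all. In that class ABP140 had 752 counts in IP, at 333 to 488 CPM of the class over 4 groups, and 8 in total libraries, at 42.2 to 164 CPM over 2 groups. OAZ1 had 23 counts in IP and 0 in total libraries, where a count of 0 allows up to 3. Ty1 frames had 172 counts in IP and 4 in total libraries. Ty2 frames had 237, Ty3 frames 59 and Ty4 frames 4 counts in IP, and each had 0 in total libraries. Of these values, those above 3 counts were picked out, 3 being the most that an observed count of 0 allows. The IP libraries were of Upf1-FLAG, upf2Δ-labelled, FLAG-Upf1 and triple cells, whereas the total libraries came from the N-terminal experiment alone. The classes of IP and total libraries also differ in depth, and no difference between them was tested.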

How the results depend on the processing

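RLE factors left all 15 counts of members called within 1.5 times, and all 61 family sums and 161 named values as reported. DESeq2 kept 14 of 15 counts, with 2 calls in translational efficiency against 0 by edgeR. A replicate block kept 15 of 15 counts (22 in DE572AA-FLAG against WT-C among them), while 5 of 161 named values lost and 1 gained a call, all in RNA, and no named call of IP against total changed. Lost were ABP140 in upf2Δ-labelled against Upf1-FLAG cells and YFL002W-A and YGR161W-B in FLAG-Upf3 and triple cells with CHX, and gained was YPL060C-A in Upf1-FLAG against WT-C cells. Deviations of same-numbered RNA libraries of different strains correlated at -0.21 to 0.20 in the C-terminal and -0.40 to 0.22 in the N-terminal experiment. Whether such libraries share more than a number was not tested, and with 2 replicates a group the sign of a correlation is no guide. Same-numbered libraries of 1 strain with and without CHX correlated at -0.16 to 0.52, with 0.52 in WT-N, where the block gave 18 calls for CHX, against 17. Without the filter, Upf1-FLAG IP against total had 7 members called, against 4, and total footprints of the N-terminal strains had 1, against 0. With only the compared groups in the fit, RNA calls of the N-terminal strains were 26 with CHX, against 52, and 18 without CHX, against 41, and WT-N with against without CHX had 8, against 17; those fits have fewer samples. Of 161 named values 40 lost and 1 gained a call there.

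With library totals WT-N with against without CHX had 8 calls, and ABP140 there was 0.023, as with limma on FPKM, the only sign among the named values that these 2 settings turned. With library totals 13 of 145 named values lost and 2 gained a call, and with limma 15 of 146 lost and 2 gained one. Family sums moved as follows with library totals. Ty1 was 0.15 in DE572AA-FLAG against Upf1-FLAG and -0.17 against WT-C, -0.77 in triple, -0.20 for CHX in WT-N and -1.02 in FLAG-Upf1 without CHX. Ty2 was 0.63 in DE572AA-FLAG against Upf1-FLAG, 0.90 against WT-C and -0.12 for CHX in WT-N. Ty3 was 1.11 and 1.74 in DE572AA-FLAG against Upf1-FLAG and WT-C, 1.28 in upf2Δ-labelled against WT-C, 0.33 in triple and 0.81 for CHX in WT-N. Ty4 was -0.065 in FLAG-Upf3 with CHX, 0.98 for CHX in WT-N and 0.30 in FLAG-Upf1 without CHX. The median of all transcripts moved to 0.11 in DE572AA-FLAG against WT-C and 0.14 against Upf1-FLAG.

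Leaving out 1 library gave 3 to 5 calls in DE572AA-FLAG IP against total (3 without IP replicate 2), 2 to 7 in Upf1-FLAG (2 without IP replicate 2, 7 without replicate 3), 0 to 1 in translational efficiency (1 without WT-C total replicate 1), 0 to 3 in C-terminal total footprints (3 without WT-C replicate 1, 0 without WT-C replicate 2 or 3 or any upf2Δ-labelled library) and 2 to 5 in N-terminal IP against total (2 without FLAG-Upf2 IP replicate 2 or total replicate 1 without CHX). Ty1 ranged from -0.97 to -0.75 in FLAG-Upf1, -0.92 to -0.78 in triple and -0.15 to 0.058 in FLAG-Upf2 with CHX, and -0.15 to 0.0039 in FLAG-Upf2 without it. Ty2 ranged from -0.35 to -0.12 in triple, -0.59 to -0.35 in FLAG-Upf3 with CHX and -0.71 to -0.26 for CHX in WT-N, and without CHX from -1.17 to -0.72 in FLAG-Upf1, -0.029 to 0.42 in FLAG-Upf2 and -0.92 to -0.47 in FLAG-Upf3. Ty3 ranged from 1.19 to 1.24 in upf2Δ-labelled against WT-C, 0.15 to 0.34 in triple and -0.16 to 0.066 in FLAG-Upf2 with CHX. Ty4 ranged from 0.52 to 0.69 for CHX in WT-N, and without CHX from 0.11 to 0.29 in FLAG-Upf1, 0.35 to 0.53 in FLAG-Upf2 and 0.022 to 0.20 in FLAG-Upf3. The cause of these moves was not tested.

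The sum with Gag-only rows and fold changes in the 37 to 43 nt class were not run. Footprint counts of Ty frames, down to 4 for Ty4 in WT-C, limit all statements on footprints, and intervals of single Ty frames cover neither the division of shared reads nor copies absent from the reference.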
